A study of Mus musculus with 6 samples.

Results

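The genes of the AMPA receptor, the glutamate-gated channel of fast excitatory synapses, were followed here in hippocampal RNA of mice with 1 or 2 intact copies of the gene for TonEBP. The 9 genes were taken by symbol: the pore subunits Gria1, Gria2, Gria3 and Gria4, the TARP genes Cacng2, Cacng3 and Cacng8 (transmembrane AMPA receptor regulatory proteins), and the cornichon genes Cnih2 and Cnih3. All 9 were among the 24346 symbols listed for every library, and all 9 were among the 13122 genes tested. TonEBP, an NFAT-related transcription factor encoded by Nfat5, activates genes for osmotic adaptation.

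Pore subunits assemble as tetramers, and their mixture sets calcium permeability and kinetics. Receptors that contain edited GluA2, the product of Gria2, pass little calcium, and those that lack it are permeable to calcium. TARPs and cornichons bind the pore, bring it to the surface and slow its closing. Gria1, Gria2, Cacng8 and Cnih2 are known for their high expression in hippocampal pyramidal cells, Gria4 for parvalbumin interneurons and thalamus, and Cacng2 for cerebellum and thalamus.

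The hippocampus was sampled from mice of strain C57BL/6 aged 12 months, in 6 libraries. Group WT held 3 wild type (TonEBP+/+) libraries and group HET held 3 TonEBP+/- libraries, from littermates of heterozygous crosses back-crossed to C57BL/6J, with no treatment named. The labels name neither the disrupted part of the gene, nor the cells it is disrupted in, nor the sex of the mice. The labels number the libraries 1 to 3 in each genotype and do not say how the mice were kept apart, so p-values measure the spread between these libraries only, which may be technical. Values are FPKM, which scale fragments by transcript length and by library depth. Genes can be compared with each other as far as the transcript length used for each, which the sources do not give, is right. The values were computed back from the deposited log2(value + 1), and differences between genotypes are on that log2 scale, as HET minus WT.

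Low values fell on steps from which a depth of about 8020000 fragments (HET 1) to 12400000 fragments (HET 3) was estimated. All 17 pyramidal and granule cell markers of the hippocampus that were examined were at 1.59 FPKM or more in every library. The targeted gene Nfat5 was at 10.5, 8.39 and 9.72 FPKM in wild-type libraries 1 to 3, against 8.25, 9.31 and 8.42 FPKM in HET libraries 1 to 3, so that the genotypes overlapped and its level did not check the labels. Its log2 difference was -0.12 (95% interval -0.34 to 0.09, limma adjusted p = 1.00). Markers of thalamus and habenula, tissue that borders the hippocampus, summed to 263 to 311 FPKM in the 3 wild-type libraries and HET 1, and to 162 and 155 FPKM in HET 2 and HET 3. Choroid plexus markers summed to 94.5 to 3420 FPKM over the 6 libraries. In bulk tissue, fewer cells of a type and less RNA per cell cannot be told apart.

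The first question was how abundant each subunit was. Among the pore subunits Gria2 was highest, with 170 ± 14.1 FPKM (SD, n = 6 libraries of both genotypes), followed by Gria1 with 140 ± 11.0 FPKM. Gria3 was at 54.5 ± 3.97 FPKM and Gria4 at 27.5 ± 2.69 FPKM (SD, n = 6 each). Gria2 lay above 97.1% of the tested genes by its mean level, and Gria4 above 78.7%. The auxiliary genes spanned a wider range than the pore subunits. Cnih2, whose protein CNIH2 accompanies receptors from the endoplasmic reticulum to the synapse, was at 152 ± 13.9 FPKM, between Gria2 and Gria1. Its relative Cnih3 was at 20.8 ± 1.40 FPKM (SD, n = 6 each). Among the TARPs, Cacng8, which encodes TARP gamma-8, was highest with 31.0 ± 2.04 FPKM. Cacng2, the gene of stargazin, was at 7.52 ± 1.25 FPKM, and Cacng3, which encodes TARP gamma-3, was lowest of all with 5.73 ± 1.37 FPKM (SD, n = 6 each). The mean of Gria2 was 29.6 times that of Cacng3.

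**Figure D1:**
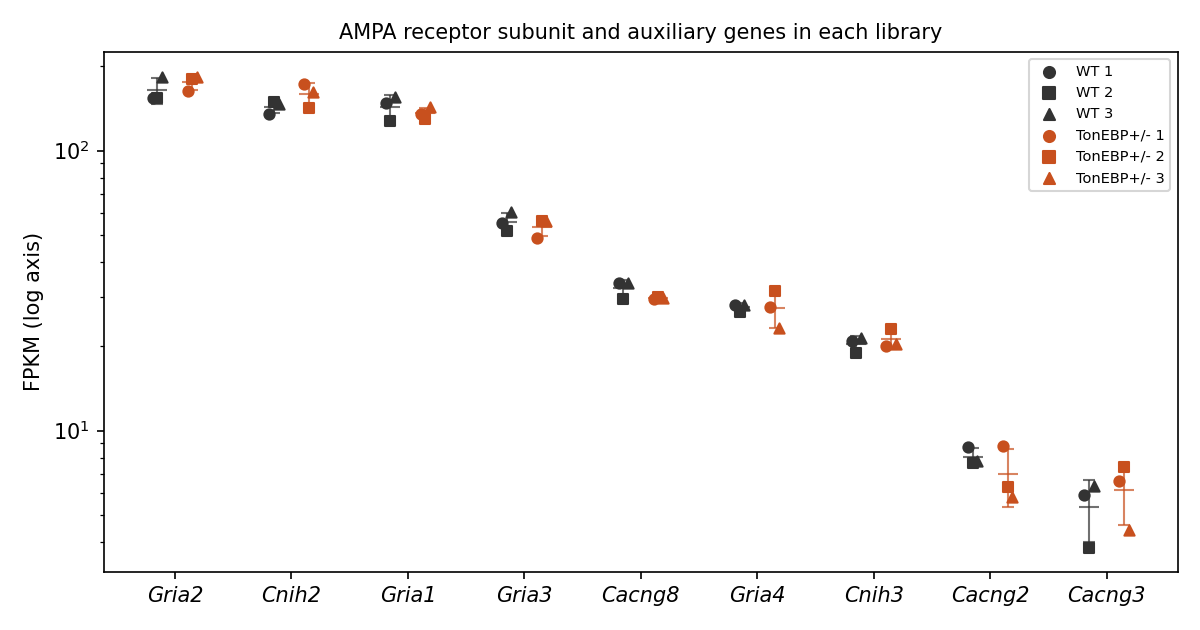
FPKM of the 9 genes (log axis) in each wild-type (black) and TonEBP+/- (orange) library, ordered by mean. Points are libraries and bars are mean ± SD of 3 libraries. The levels run from 154 to 184 FPKM for Gria2 down to 3.80 to 7.41 FPKM for Cacng3, and the genotypes overlap for every gene.

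The order was the same in every library for most pairs. Of the 36 pairs that the 9 genes form, 32 kept 1 order in 6 of 6 libraries, for which a two-sided exact sign-flip permutation test over libraries gave p = 0.0312 (0.0352 after Benjamini-Hochberg adjustment over the 36 pairs), the smallest p that 6 libraries allow. An error in the transcript length used for a gene would be shared by all 6 libraries, so this test could not detect it. The 4 remaining pairs were neighbours in the order. Gria2 was above Cnih2 in 5 of 6 libraries, with HET 1 as the exception (exact p = 0.0938, adjusted 0.0964). Cnih2 was above Gria1 in 4 of 6 libraries (exact p = 0.188, adjusted 0.188), so the 3 most abundant genes were not separated beyond their spread except for Gria2 over Gria1, which held in 6 of 6. Cacng8 was above Gria4 in 5 of 6 libraries, and Cacng2 above Cacng3 in 5 of 6 (exact p = 0.0625, adjusted 0.0662 for each pair). Both of these pairs changed order in HET 2. Gria1 was 2.56 ± 0.160 times Gria3 (SD, n = 6), the largest step between neighbouring pore subunits, and Cnih3 was 2.85 ± 0.606 times Cacng2.

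The spread between libraries was small for most of the genes. The coefficient of variation over 6 libraries was 6.57% for Cacng8, 6.72% for Cnih3, 7.28% for Gria3, 7.85% for Gria1, 8.31% for Gria2, 9.16% for Cnih2 and 9.77% for Gria4, against a median of 9.26% over all tested genes. The 2 least abundant genes varied more, Cacng2 by 16.6% and Cacng3 by 23.9%. Depth limits Cacng3 most. With the estimated depth, Cacng3 rested on about 91.9 to 178 fragments per library, where counting alone gives a coefficient of variation of up to 10.4%. Cnih3, which varied by 6.72%, came next with about 209 to 329 fragments (up to 6.91%). Cacng2 rested on about 300 to 515 fragments (up to 5.77%). Gria2 rested on about 9420 to 16300 fragments (up to 1.03%). These numbers use the median annotated coding transcript length and cover counting error only.

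The sequence before the annotated start is printed for Gria4, a pore subunit gene whose window lies outside both the RefSeq gene span and every GENCODE vM21 exon. It is given 5′ to 3′ on the strand of the gene, with every CpG dinucleotide in capitals, since stretches dense in CpG mark many promoters. The 250 bases are from RefSeq (GRCm38.p6), at chr9:4796235-4796484 on the minus strand.
Gria4: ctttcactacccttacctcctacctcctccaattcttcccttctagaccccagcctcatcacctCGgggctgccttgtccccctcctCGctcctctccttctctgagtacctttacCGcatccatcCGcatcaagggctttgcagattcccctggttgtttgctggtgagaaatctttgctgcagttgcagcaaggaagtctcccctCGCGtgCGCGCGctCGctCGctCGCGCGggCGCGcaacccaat

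Gria4 had 16 CpG in these 250 bases, against a median of 6 over the same 250 bases of 32851 RefSeq windows. A window of 300 bases (250 before the start of a RefSeq transcript and 50 after it) was searched for 6 of the 9 genes: Gria2, Gria4, Cacng2, Cacng3, Cacng8 and Cnih3. In 3 of them (Gria2, Cacng2 and Cnih3) the RefSeq gene span begins farther out, so that the window lies inside it, and in 2 (Cacng2 and Cacng3) the 250 bases overlap an annotated GENCODE exon. Over the first 250 bases the count of CpG ran from 0 in Cacng8 to 36 in Cnih3, with 19 in Gria2. The letters TGGAAA, the core shared by NFAT5 and other NFAT sites, occurred on either strand in 0 of these 6 windows and in 21.4% of all windows. GGGCGG, the GC box bound by Sp1 family factors, was counted in the same way and occurred 1 time in Cnih3 and in none of the other 5, against 35.7% of all windows. These counts describe letters in short windows and no binding was measured.

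The second question was whether the genotypes differed. Of 13122 genes tested with limma, 0 passed an adjusted p of 0.05 (0% of genes), 484 had an unadjusted p under 0.05 (3.69%), and the genotypes did not overlap in 8.52%. Of the 9 AMPA receptor genes, 0 passed, 0 had an unadjusted p under 0.05 and 0 had genotypes that did not overlap. The smallest two-sided exact permutation p was 0.3, where 3 against 3 libraries cannot go below 0.1. The log2 difference was positive in 4 genes and negative in 5, with a median of -0.02, against a median of -5e-06 over all tested genes. Over the 9 genes the 95% intervals reached from -0.50 (Cacng2) to 0.65 (Cacng3).

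Gria1, whose product GluA1 is delivered to synapses during potentiation, was at 148, 128 and 156 FPKM in wild-type libraries 1 to 3, against 135, 129 and 143 FPKM in HET libraries 1 to 3. All 3 HET values lay between the lowest and the highest wild-type value. This gave a log2 difference of -0.08 (SE 0.0872, 95% interval -0.27 to 0.12, limma adjusted p = 1.00). Gria2 was at 155, 154 and 184 FPKM in wild-type libraries 1 to 3, against 163, 180 and 183 FPKM in HET libraries 1 to 3. WT 3 was the highest library, HET 2 and HET 3 lay just under it, and WT 1 and WT 2 were the lowest. Its log2 difference was 0.10 (SE 0.0899, 95% interval -0.10 to 0.30, limma adjusted p = 1.00).

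Gria3, an X-linked subunit gene, was at 55.0, 51.5 and 60.1 FPKM in wild-type libraries 1 to 3, against 48.7, 56.0 and 55.9 FPKM in HET libraries 1 to 3. HET 1 was the lowest library and WT 3 the highest, and the log2 difference was -0.05 (SE 0.0832, 95% interval -0.24 to 0.13). Gria4, which encodes the fast-gating GluA4, was at 28.2, 26.5 and 28.1 FPKM in wild-type libraries 1 to 3, against 27.6, 31.5 and 23.2 FPKM in HET libraries 1 to 3. The wild-type libraries lay close together, and HET 2 and HET 3 were the highest and the lowest of all 6. The coefficient of variation was 3.43% in wild type and 15.1% in HET, a difference in spread that was not tested. The log2 difference of Gria4 was -0.02 (SE 0.102, 95% interval -0.25 to 0.21), and it was 0.09 without HET 3, while that of Gria3 was 0.01 without HET 1 or without WT 3.

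**Figure D2:**
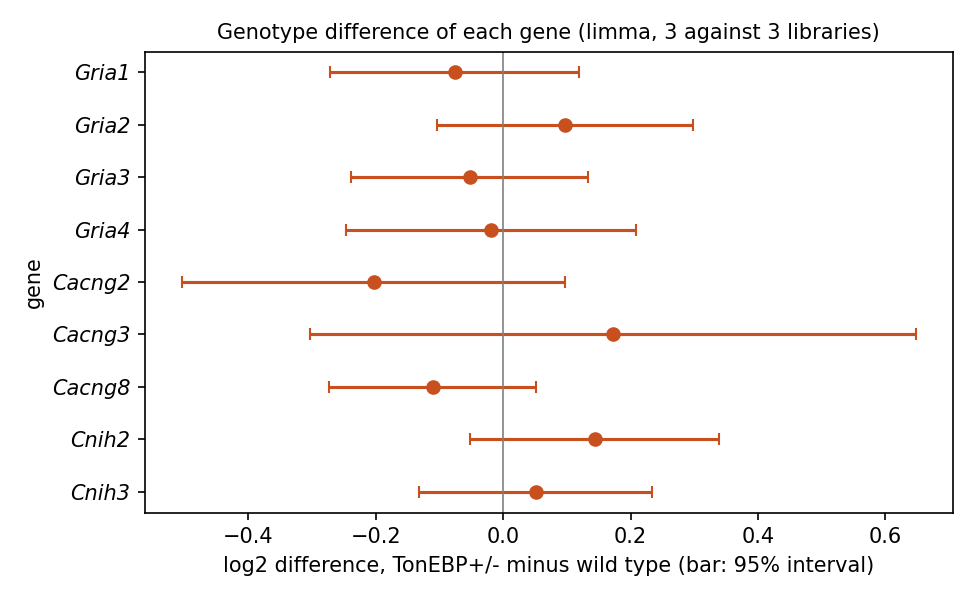
The log2 difference of each gene (x axis, TonEBP+/- minus wild type) with its 95% interval from limma, 3 against 3 libraries. Every interval includes 0, and those of the low genes Cacng2 and Cacng3 are the widest.

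The share of each subunit in the pool of pore RNA was taken as its FPKM over the sum of Gria1 to Gria4, which amounted to 391 ± 34.4 FPKM in wild type and 392 ± 15.8 FPKM in HET (SD, n = 3 each). Gria2 made up 40.1%, 42.9% and 43.0% of the sum in wild-type libraries 1 to 3, against 43.6%, 45.4% and 45.2% in HET libraries 1 to 3. Here the genotypes did not overlap, with HET higher by 2.71 percentage points (44.7 ± 0.989% against 42.0 ± 1.64%, SD, n = 3 each). The nearest libraries of the 2 genotypes were HET 1 and WT 3. This was 1 of 4 shares examined, and no p is given because the shares combine members of a chosen list. For single genes the genotypes did not overlap in 8.52% of those tested. Gria1 made up 38.3%, 35.4% and 36.4% in wild type and 36.04%, 32.6% and 35.3% in HET, with overlap. Gria3 made up 13.0% to 14.3% in all 6 libraries and Gria4 5.73% to 7.92%. The ratio of Gria1 to Gria2 was 0.954, 0.826 and 0.846 in wild-type libraries 1 to 3, against 0.827, 0.718 and 0.781 in HET libraries 1 to 3, so that HET 1 and WT 2 were nearly equal.

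**Figure D3:**
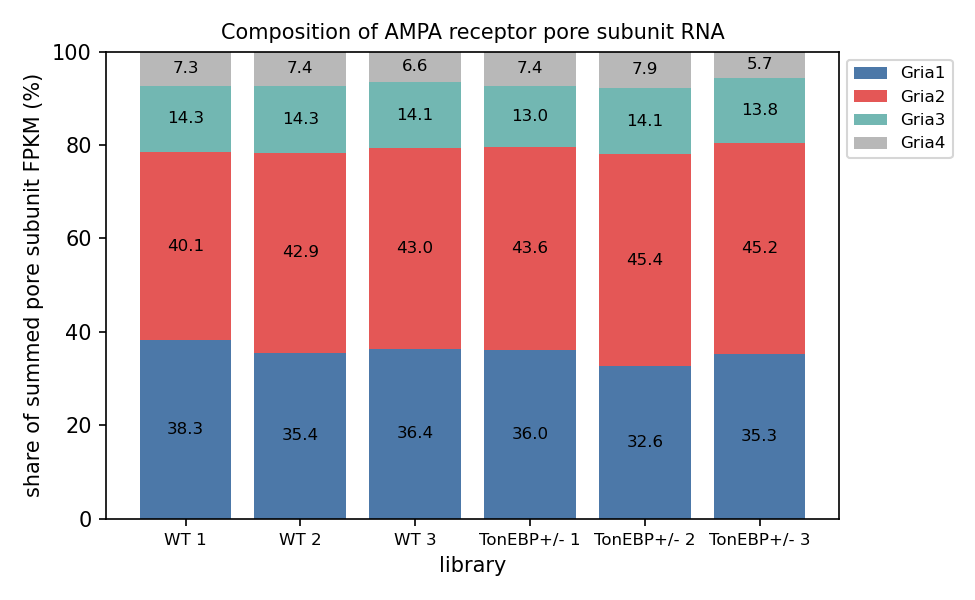
Share of each pore subunit (colours, with percentages) in the summed FPKM of Gria1 to Gria4, 1 bar per library. Gria2 takes 40.1% to 43.0% in wild type and 43.6% to 45.4% in TonEBP+/- libraries.

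Among the auxiliary genes, Cacng8, whose protein TARP gamma-8 is the main TARP of hippocampal pyramidal cells, was at 33.6, 29.5 and 33.6 FPKM in wild-type libraries 1 to 3, against 29.4, 30.0 and 29.7 FPKM in HET libraries 1 to 3. The HET libraries lay close together (coefficient of variation 1.08%), and of the wild-type libraries only WT 2 was as low. The log2 difference was -0.11 (SE 0.0726, 95% interval -0.27 to 0.05, limma adjusted p = 1.00). Cacng3 was at 5.88, 3.80 and 6.32 FPKM in wild-type libraries 1 to 3, against 6.58, 7.41 and 4.41 FPKM in HET libraries 1 to 3. WT 2 and HET 3 were low, and the log2 difference of 0.17 (SE 0.206, 95% interval -0.30 to 0.65) became -0.02 without WT 2. The 2 low libraries were the lowest of their genotypes, and these values rest on few fragments, as given above.

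Cnih2 was at 135, 149 and 147 FPKM in wild-type libraries 1 to 3, against 173, 142 and 162 FPKM in HET libraries 1 to 3. HET 1 and HET 3 were above every wild-type library, and HET 2 lay within the wild-type range. The log2 difference was 0.14 (SE 0.0872, 95% interval -0.05 to 0.34, limma adjusted p = 1.00), with the smallest unadjusted p of the 9 genes (0.132). Cnih3 was at 20.9, 19.0 and 21.5 FPKM in wild-type libraries 1 to 3, against 20.1, 23.1 and 20.4 FPKM in HET libraries 1 to 3. HET 2 was the highest library and WT 2 the lowest, and the log2 difference was 0.05 (SE 0.0817, 95% interval -0.13 to 0.23). An exon of Yif1a on the opposite strand shares 14 bases with Cnih2, and one of A730060N03Rik shares 323 bases with Cacng2. The sources used here do not say whether abundances were computed with strand, so reads of these overlaps may not be told apart.

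Cacng2 had its lowest values in the same libraries as a set of thalamic markers. It was at 8.74, 7.68 and 7.77 FPKM in wild-type libraries 1 to 3, against 8.83, 6.29 and 5.78 FPKM in HET libraries 1 to 3. HET 1 was the highest of all 6 libraries, and HET 2 and HET 3 were the lowest. Over all libraries the log2 difference was -0.20 (SE 0.134, 95% interval -0.50 to 0.10, limma adjusted p = 1.00). Without HET 1 it was -0.36 (unadjusted p = 0.00594, limma adjusted p = 0.569). HET 2 and HET 3 were also the libraries low in the 13 thalamus and habenula markers. Of these, 13 of 13 were tested and 13 of 13 had a negative log2 difference. In limma 0 passed the threshold and 3 had an unadjusted p under 0.05. This list was chosen with earlier results of these data known. Its counts and the covariate made from it are therefore descriptions and no independent evidence. The list median, relative to the mean of the 6 libraries, was 0.15, 0.26, 0.27 and 0.30 on the log2 scale in WT 1, WT 2, WT 3 and HET 1, and -0.46 and -0.52 in HET 2 and HET 3. The lowest value of any of the 13 markers was 0.622 FPKM. On the same scale Cacng2 was at 0.21, 0.04, 0.06 and 0.22 in the first 4 libraries and at -0.21 and -0.31 in HET 2 and HET 3. With the mean of these markers as a covariate, the log2 difference of Cacng2 was 0.08 (SE 0.127), with its sign turned. The same covariate moved Gria2 to 0.01 (SE 0.122), Gria3 to -0.17 (SE 0.101) and Cnih2 to 0.25 (SE 0.113), each with a limma adjusted p of 1.00. Gria4, which thalamic neurons also express, was at 0.19 in HET 2 and -0.23 in HET 3 and so was low in only 1 of these 2 libraries.

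The other genes that act on AMPA receptors were taken from 5 groups, of which 38 genes were in the files and 37 were tested. Of these, 0 passed an adjusted p of 0.05, 2 had an unadjusted p under 0.05, 16 had a positive and 21 a negative log2 difference (median -0.03), and the genotypes did not overlap in 3 (Shisa6, Olfm3 and Abhd6). These 3 of 37 stand beside the 8.52% of all tested genes. The log2 differences named next all had a limma adjusted p of 1.00.

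Of 13 tested genes for further TARPs and auxiliary proteins, 9 had a negative and 4 a positive difference. Olfm3, which encodes the secreted receptor-associated protein noelin-3, was at 13.4, 16.0 and 14.6 FPKM in wild-type libraries 1 to 3, against 12.8, 12.6 and 10.3 FPKM in HET libraries 1 to 3. All HET libraries were below all wild-type libraries (log2 difference -0.28, SE 0.101). Cacng4, the gene of TARP gamma-4, was at 9.58, 6.55 and 6.34 FPKM in wild-type libraries 1 to 3, against 6.42, 5.52 and 4.33 FPKM in HET libraries 1 to 3. WT 1 was high, and the log2 difference of -0.40 (SE 0.166) was -0.23 without WT 1 and -0.22 with the thalamus covariate. Shisa6, whose protein keeps receptors from desensitizing, was at 10.3 to 12.5 FPKM in wild type and at 9.47 to 10.2 FPKM in HET (log2 difference -0.18, SE 0.0876), and it was named after its values were seen.

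Of 5 tested biogenesis genes 2 were positive and 3 negative. Abhd6, which encodes a hydrolase that limits receptor delivery, was at 25.0, 24.7 and 25.8 FPKM in wild-type libraries 1 to 3, against 27.1, 27.3 and 27.4 FPKM in HET libraries 1 to 3, a log2 difference of 0.11 (SE 0.0633) without overlap. Frrs1l, a gene of receptor assembly in the endoplasmic reticulum, had a log2 difference of -0.11 (SE 0.0740). Of 10 tested anchoring and trafficking genes 6 were positive and 4 negative, with Arc, which drives receptor endocytosis, at 0.18 (SE 0.112) and the scaffold gene Dlg1 at 0.09 (SE 0.0748). Of 6 tested genes for extracellular organizers 3 were positive and 3 negative, with the pentraxin gene Nptx2 at -0.20 (SE 0.111) and the synaptic adhesion gene Lrrtm4 at 0.15 (SE 0.0855).

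**Figure D4:**
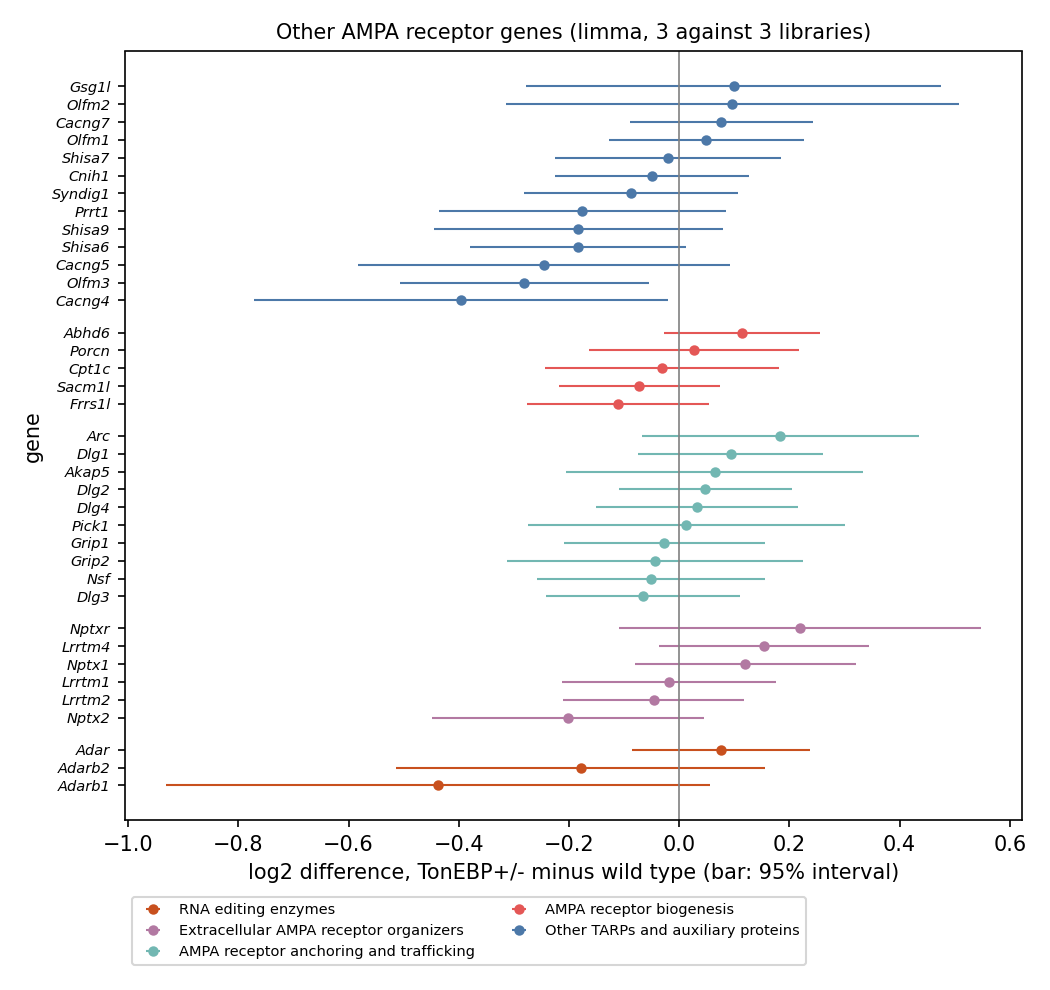
The log2 difference (x axis, TonEBP+/- minus wild type) of 37 other AMPA receptor genes with 95% intervals from limma, coloured by group. The intervals of Olfm3 and Cacng4 leave out 0 before adjustment, and no gene passes after it.

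The last group holds the RNA editing enzymes, of which the product of Adarb1 recodes the pore site of the Gria2 transcript. Adarb1 was at 63.2, 65.6 and 57.7 FPKM in wild-type libraries 1 to 3, against 64.8, 38.0 and 38.3 FPKM in HET libraries 1 to 3. HET 1 lay within the wild-type range, and HET 2 and HET 3 lay far below it. Over all libraries the log2 difference of Adarb1 was -0.44 (SE 0.206, 95% interval -0.93 to 0.06, limma adjusted p = 1.00). Without HET 1 it was -0.69 and passed the threshold (limma adjusted p = 0.0425), as 1 of 8 genes that did. With the thalamus covariate and all 6 libraries it was 0.01 (SE 0.101). Adarb2, which encodes a related protein without known editing activity, was at 14.2 FPKM in HET 1 and at 9.25 and 9.21 FPKM in HET 2 and HET 3, against 11.7 to 12.9 FPKM in wild type (log2 difference -0.18, SE 0.148). Editing of the Gria2 transcript itself cannot be read from gene-level values.

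**Figure D5:**
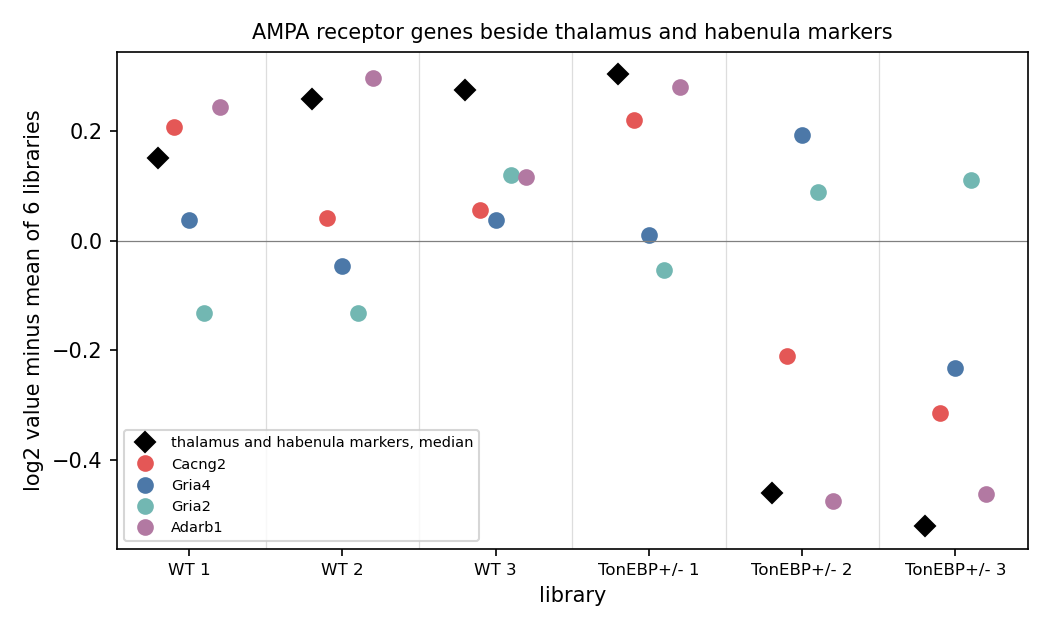
The log2 value of each library minus the mean of the 6 libraries (y axis) for the median of 13 thalamus and habenula markers (diamonds), Cacng2, Gria4, Gria2 and Adarb1 (circles). In TonEBP+/- 2 and 3 (HET 2 and HET 3) the markers are at -0.46 and -0.52 and Cacng2 at -0.21 and -0.31, while Gria2 is at 0.09 and 0.11.

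Markers of the other cell types in the tissue were set beside the receptor genes. Markers of interneurons, which include the Gria4-rich parvalbumin cells, had 3 of 9 genes with a positive and 6 with a negative log2 difference, and summed to 544 to 626 FPKM over the 6 libraries. Pvalb, the marker of those cells, was at 82.4, 128 and 94.4 FPKM in wild-type libraries 1 to 3, against 73.2, 74.2 and 72.6 FPKM in HET libraries 1 to 3. Its genotypes did not overlap, as in 8.52% of all tested genes (log2 difference -0.44, SE 0.141, limma adjusted p = 1.00). Pvalb was named after its values were seen. The log2 differences of the other interneuron markers ran from -0.29 (Gad1) to 0.19 (Vip). Cck alone was at 300 (HET 3) to 355 FPKM (HET 1), so the sum of the interneuron markers says little about the rest of that list. CA1 pyramidal markers were positive in 4 of 5 genes, with a list median of 0.16 in HET 2, 0.06 in HET 3, -0.06 in HET 1 and -0.09 to -0.02 in wild type relative to the mean of the 6 libraries. Gria2 was at 0.09 in HET 2, 0.11 in HET 3 and -0.05 in HET 1, but its highest library was WT 3, at 0.12, with WT 1 and WT 2 at -0.13 each. Dentate granule markers were negative in 5 of 6 genes, and oligodendrocyte precursor markers were positive in 3 of 5. CA3 and CA2 markers were negative in 6 of 6 genes (1 at an unadjusted p under 0.05), and mature oligodendrocyte markers in 5 of 5. Meningeal fibroblast markers were positive in 5 of 5 tested genes and astrocyte markers in 5 of 6. HET 2 stood apart in several lists, with the meningeal median at 0.70, the mature oligodendrocyte median at -0.29 and the dentate granule median at -0.21. In these lists 0 genes passed. The part of these cell types in the values of the receptor genes was not tested.

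The genes with the profile most like that of each pore subunit over the 6 libraries were taken among 8793 genes at a mean of 5 FPKM or more. The measure was Pearson's r of log2 values over 6 libraries of 1 tissue, which share their depth and makeup, and it is a description without a test. Nearest to Gria1 were Scaf11 (r = 0.987), Dock9 (0.984) and Wdr19 (0.978). Nearest to Gria2 were Supv3l1 (r = 0.993), Plk2 (0.985) and Hyou1 (0.983). Nearest to Gria3 were Pcyox1 (r = 0.995), Rab3gap2 (0.993) and Atrn (0.991), and nearest to Gria4 were Rabl2 (0.994), Glt1d1 (0.979) and Flrt1 (0.975). No pore subunit was among the 3 nearest genes of another.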

How the data were processed

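Total RNA of the hippocampus was made into strand-specific libraries (NEBNext Ultra II Directional), per the labels' protocols, and TopHat and mm10 are named for the alignment in the submitters' processing notes. The sources used here give no version, annotation or abundance program. The authors deposited 1 log2 value per gene symbol and library, and no header names the unit. It was read from the values: 2 to the power of the value, minus 1, fell on steps set by transcript length, with 65.7% to 70.5% of low values of single-transcript genes within 0.15 of a whole number of fragments at the best depth, against 23.1% to 26.4% at a typical other depth. It is therefore called FPKM here. Reading it as FPKM affects levels, shares and the filter, and not log2 differences. The 13122 genes that reached 1 FPKM in 3 libraries entered the tests. Log2 values as deposited went into limma 3.58.1 (R 4.3.3), with genotype as the only term and eBayes with its trend and robust options. Adjusted p-values are Benjamini-Hochberg values over these 13122 genes, read at 0.05. The procedure was also run on simulated data. The smallest difference simulated was larger than that of any of the 9 genes. That run therefore does not show whether differences of their size would be found. Because of the added 1, differences of low genes are understated. The members and gene lists were chosen with earlier results of these data known. Genes named are the 9 members, the 2 with the smallest p in each group of other receptor genes, any that passed, and the 3 nearest genes by profile of each pore subunit. Marker lists are given by counts. Shisa6 and Pvalb were named after their values were seen. Alternatives were another scaling, filter, pseudocount or eBayes option, an adjusted p of 0.1, a replicate block, a thalamus covariate and each library left out. Alternatives for counts did not apply. Start site windows of 3 of the 9 genes were not used here. Plots used matplotlib 3.10.9 (Python 3.11.15).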

Additional observations from a re-analysis of the deposited data

How the results depend on the processing

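No alternative brought any of the 9 AMPA receptor genes past an adjusted p of 0.05 (smallest limma adjusted p = 0.569, Cacng2 without HET 1). Over all genes the count of 0 became 0 to 8 when 1 library was left out: 8 without HET 1, 1 without WT 1, WT 2 or HET 3, and 0 without WT 3 or HET 2. Under the other alternatives, an adjusted p of 0.1 included, it was 0. The direction of the log2 difference held under all 14 alternatives for Gria1, Gria2, Cacng8 and Cnih2, but not the size. Another filter or none, no robust option and the replicate block leave the difference itself unchanged. Those alternatives therefore could not turn the direction. Scaling each library to its median moves all genes by the same small amount (Gria1 from -0.0764 to -0.0899). It could not turn these genes either, and the pseudocount of 0.1 hardly moved them (Gria1 to -0.0769). The direction is therefore checked mainly by quantile normalization, the thalamus covariate and the libraries left out. With 1 library left out, Gria1 ranged from -0.159 to -0.0161, Gria2 from 0.0548 to 0.181, Cacng8 from -0.171 to -0.0802 and Cnih2 from 0.0816 to 0.222, and with the thalamus covariate Gria2 was at 0.00634, Gria3 at -0.174 and Cnih2 at 0.253. The direction turned for Gria4 with quantile normalization (0.000942) and with the thalamus covariate (0.0136), for Cacng2 with that covariate (0.0753) and for Cnih3 with it (-0.0121). With 1 library left out, Gria3 ranged from -0.105 to 0.0129, Gria4 from -0.121 to 0.0917, Cacng3 from -0.0164 to 0.359 and Cnih3 from -0.00957 to 0.0860. The share of Gria2 was higher in HET by 1.77 to 3.28 percentage points with 1 library left out. Because the genotypes did not overlap in this share, leaving out 1 library could change its size but not its sign. The thalamus covariate was not applied to the share. The order of the 9 genes by mean was the same with each library left out and by median. Same-numbered libraries did not deviate together (correlations of deviations -0.21, -0.25 and -0.16 over the 3 pairs). With 3 libraries per genotype these correlations cannot tell whether the numbers pair the mice. With the replicate block 0 genes passed, of all genes and of the 9. By estimated fragments depth limits Cacng3 most and Cnih3 next, and 3 against 3 libraries can miss differences inside the intervals given.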

Other observations

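Beyond the shares of the pore subunits, 10 sums and ratios of the 9 genes were computed after their values were seen, so that they are descriptions. The quantities also share genes with each other, and for single genes the genotypes did not overlap in 8.52% of those tested. Of all 14 quantities the genotypes did not overlap in 2, the share of Gria2 and the level of Cacng8 as a percentage of the summed pore subunits. The latter was 8.71%, 8.20% and 7.86% in wild-type libraries 1 to 3, against 7.85%, 7.56% and 7.35% in HET libraries 1 to 3, so that WT 3 and HET 1 were almost equal. Cnih2 was at 34.4% to 46.2% of the pore subunit sum, with overlap. The ratio of Cacng8 to Gria1 stayed between 0.208 and 0.232 in all 6 libraries, whereas the ratio of Cacng8 to Cacng2 ranged from 3.33 in HET 1 to 5.14 in HET 3. The ratio of Cnih3 to Cnih2 was lowest in HET 1 (0.116) and highest in HET 2 (0.162). The summed TARP level was 45.6 ± 4.02 FPKM in wild type and 42.8 ± 2.57 FPKM in HET, and the summed cornichon level 164 ± 7.20 against 181 ± 13.99 FPKM (SD, n = 3 each), both with overlap.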
